A study of Mus musculus with 6 samples.

Results

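Genes for 5 ligands and 5 receptors of the Vegf and angiopoietin pathways were followed in whole mouse kidneys at embryonic day 16. They are the ligand genes Vegfa, Vegfb, Vegfc, Angpt1 and Angpt2 and the receptor genes Flt1, Kdr, Flt4, Tek and Tie1, chosen by name. All 10 had a row of their own among the 13965 rows of the expression table, and all 10 passed the filter on low values. RNA sequencing gave 3 control and 3 mutant libraries, and each of 3 litters supplied 1 of each. Control kidneys are labelled wild type with 1 floxed copy of the miR-17~92 microRNA cluster (miR-17~92 flx/+). Mutant kidneys are labelled Six2-TGC, miR-17~92 flx/flx, with 2 floxed copies and a transgene that makes Cre recombinase in nephron progenitors, the cells that form the nephron epithelium, podocytes included. Endothelial cells, which carry the receptors, do not come from these progenitors. The control label names no Six2-TGC, so an effect of the transgene cannot be told apart from an effect of the deletion. The submitters named nephron progenitors as the cells of interest, while the RNA came from whole kidneys. The labels do not say whether a library came from 1 embryo or several.

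As background, Vegfa is a secreted growth factor that drives blood vessel growth. It binds Kdr, the main signalling receptor of endothelial cells, and Flt1, which binds it tightly and also acts as a decoy. Vegfb binds Flt1, and Vegfc binds Flt4, the receptor best known from lymphatic vessels. Angpt1 activates the receptor tyrosine kinase Tek (also called Tie2), Angpt2 can oppose or support it depending on context, and Tie1 is a partner of Tek. In the kidney, podocytes make Vegfa and draw capillaries into the glomerulus.

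The floxed cluster encodes 6 microRNAs whose seeds, bases 2 to 8, form 4 families, and short matches to these seeds were sought in the transcripts of the 10 genes. The mature sequences are shown because the seeds, in capitals, define the matches counted below (RefSeq, GRCm38.p6, chromosome 14, plus strand):
miR-17-5p: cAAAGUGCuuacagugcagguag
miR-20a-5p: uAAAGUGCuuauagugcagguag
miR-18a-5p: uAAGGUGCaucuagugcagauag
miR-19a-3p: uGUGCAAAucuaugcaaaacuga
miR-19b-3p: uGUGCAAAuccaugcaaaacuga
miR-92a-3p: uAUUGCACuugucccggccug
The reverse complements of the seeds are GCACTTT for miR-17 and miR-20a, GCACCTT for miR-18a, TTTGCAC for miR-19 and GTGCAAT for miR-92a, and they were searched on the sense strand of 1 annotated 3′ UTR per gene (GENCODE M21).

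Of the 10 genes, 3 held a match, 32.7% being the share among 12602 genes searched the same way. The 4 matches are shown in capitals with their flanks, to show which letters were counted:
Flt1, miR-17 and miR-20a: atatttattaaGCACTTTatgc
Flt1, miR-92a: ctggaggcccaGTGCAATcccc
Vegfa, miR-17 and miR-20a: ctcttcgaggaGCACTTTgggt
Angpt2, miR-92a: acagagcactaGTGCAATttct
In Flt1 they lie at chr5:147563082-147563088 and chr5:147562624-147562630, in Vegfa at chr17:46018690-46018696 and in Angpt2 at chr8:18690769-18690775, all on the minus strand of GRCm38. The Flt1 match to miR-17 and miR-20a is the only one of the 4 followed by an A. Matches to the miR-17 and miR-20a seed occur in 14.1% of the genes searched and matches to miR-92a in 7.51%. The receptors Kdr, Flt4, Tek and Tie1 held no match in the searched UTRs of 1596, 1656, 941 and 330 bases. A match describes these letters and is no evidence of a functional site.

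The libraries held 43804667 to 54913325 reads. CPM, a gene's read count scaled to its library's total, is the scale of every level below unless a length is named. Differences are on the scale log2(CPM + 0.5), mutant minus control, fitted by limma with litter as a block, and a gene is called at a Benjamini-Hochberg adjusted p below 0.05 over 13766 rows. This fit called 1574 rows (11.4%), 1091 of them higher (7.93%) and 483 lower (3.51%) in mutant kidneys. Without the block it called 77 rows (0.559%). Mir17hg, the primary transcript of the cluster, shares a row with the cluster's microRNA genes, at 34.1, 36.4 and 23.0 CPM in control libraries 1, 2 and 3 and 53.6, 39.8 and 44.6 CPM in mutant libraries. The table does not say which of these reads cover the floxed stretch, so this row is no check of the deletion. Six3, a homeobox gene, lay between 15.3 and 20.1 CPM in the 3 mutant libraries and at most at 0.0454 CPM in the controls. Cited1, a marker of nephron progenitors, fell from 47.5 ± 8.73 CPM (SD, n = 3) to 10.9 ± 1.87 CPM. Six2, another such marker, fell less, from 50.6 ± 7.95 to 38.6 ± 6.68 CPM, and its groups overlapped. Within litters 1, 2 and 3 Six2 differed by -0.41, -0.35 and -0.40. It was called lower in the paired fit (limma adjusted p = 0.00626) and not without the block (0.354).

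All 5 receptor genes were called higher in mutant kidneys, by 1.15 to 1.31-fold, and none of the 5 ligand genes was called in either direction. Over the 10 genes, 5 were called higher and 0 lower, beside 7.93% and 3.51% of all rows. The median log2 difference was 0.25 for the receptors, 0.14 for the ligands and 0.01 for all rows tested. Mutant kidneys were above their control littermates in 3 of 3 litters for 7 of the 10 genes, beside 28.3% of all rows, and every mutant library was above every control library for 4 of them, beside 10.2% of all rows. Whether receptors and ligands differ from each other was not tested. Without the block none of the 10 was called, with an adjusted p of 0.106 to 0.579 for the receptors and 0.425 to 0.978 for the ligands. At an unadjusted p below 0.05 that fit had 4 of the 10, beside 11.3% of all rows. In whole kidney RNA, more cells of a type and more RNA per cell cannot be told apart.

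**Figure D1:**
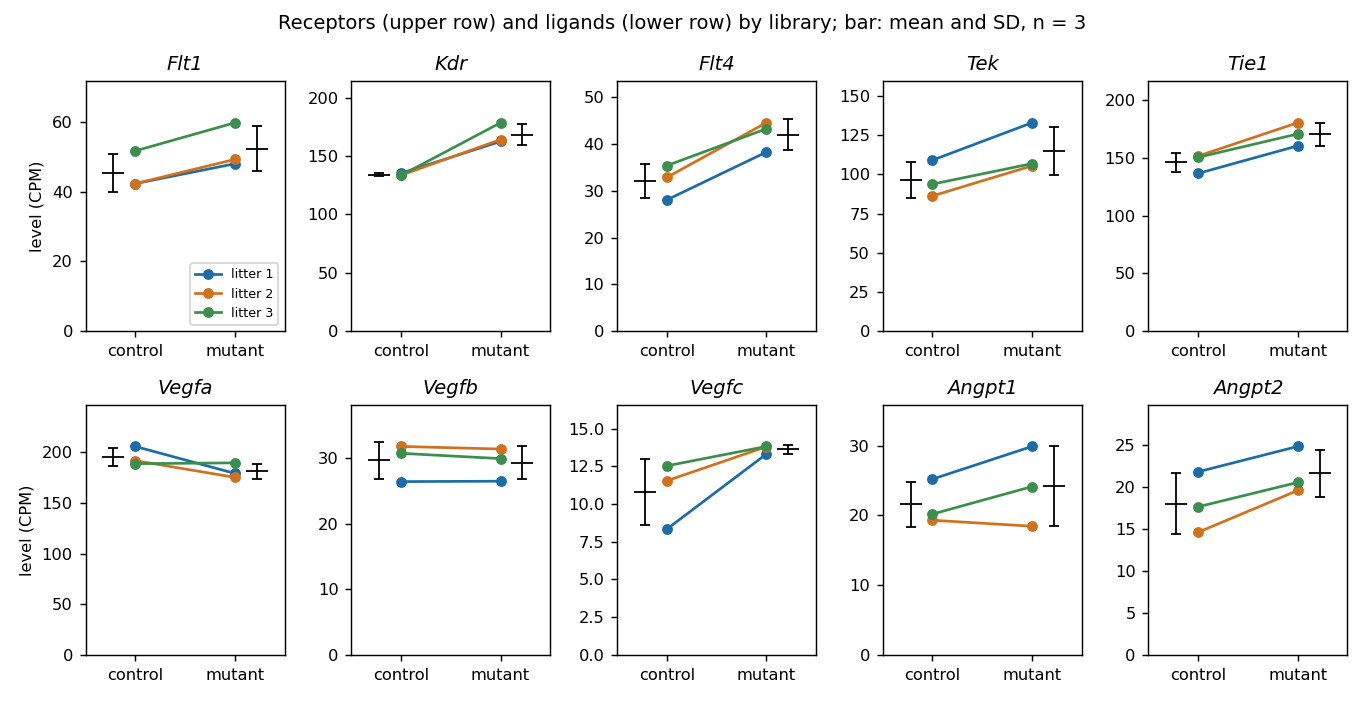
Level in CPM (vertical axes, from 0) of each gene in control and mutant libraries. Lines join the 2 libraries of a litter, and bars show the mean and SD of 3 libraries. The lines of the 5 receptors slope upward in all 3 litters, and those of Vegfa, Vegfb and Angpt1 do not share a direction.

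Kdr, the receptor through which Vegfa signals in endothelial cells, had the lowest adjusted p of the 10 genes. The gene lies at chr5:75932827-75978458 on the minus strand (GRCm38, GENCODE M21, as for every gene position). Control libraries 1, 2 and 3 held 135, 134 and 133 CPM, and mutant libraries 1, 2 and 3 held 163, 164 and 179 CPM. The groups did not overlap, and the controls were within 2 CPM of each other. Kdr rose by 0.33 on the log2 scale (SE 0.05, adjusted p = 0.00651), or 1.25-fold. It was the only one of the 10 genes called when litter 1 was left out (adjusted p = 0.0363, where 1.73% of rows were called higher), and it was also called without litter 2 (4 of the 10 higher, beside 6.87% of rows) or litter 3 (6 higher, beside 10.7%).

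Flt1, the Vegf receptor with a decoy role (chr5:147561604-147726011, minus strand), had the smallest rise of the receptors and an adjusted p just under the threshold. It is the receptor with seed matches in its 3′ UTR. It stood at 42.3, 42.3 and 51.6 CPM in control libraries 1, 2 and 3 and at 48.0, 49.2 and 59.7 CPM in the mutant libraries. Litter 3 was the highest in each group, so the groups overlapped, while the mutant exceeded its littermate each time. The log2 difference was 0.20 (SE 0.05, adjusted p = 0.0464). It was not called with median-ratio scaling (adjusted p = 0.0591, where 6.6% of rows were called higher) or trimmed-mean scaling (0.0569, 6.69%). The adjusted p was 0.203, 0.122 and 0.0592 without litters 1, 2 and 3 in turn.

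Flt4, the receptor of Vegfc (chr11:49609263-49652739, plus strand), had the largest rise of the receptors. Control libraries held 28.0, 32.8 and 35.4 CPM and mutant libraries 38.2, 44.5 and 43.2 CPM in litters 1, 2 and 3. The groups did not overlap, and litter 1 was the lowest of each. The paired log2 difference was 0.39 (SE 0.06, adjusted p = 0.00971), or 1.31-fold, and its adjusted p was 0.0795 without litter 1.

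Tek, the angiopoietin receptor (chr4:94739289-94874976, plus strand), was highest in litter 1 in each genotype. It stood at 109, 86.3 and 93.8 CPM in control libraries 1, 2 and 3 and at 133, 106 and 107 CPM in the mutant libraries. Control library 1 lay above mutant libraries 2 and 3, so the groups overlapped. Within litters the mutant was higher by 0.29, 0.29 and 0.19, and Tek rose by 0.25 in the paired fit (SE 0.05, adjusted p = 0.0143). Without the block its adjusted p was 0.461, and without litter 1 the paired value was 0.130.

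Tie1, the partner receptor of Tek (chr4:118471191-118490061, minus strand), was the most abundant receptor per length. Its levels were 136, 151 and 150.3 CPM in control and 160.2, 180.2 and 171 CPM in mutant libraries 1, 2 and 3. Every mutant library was above every control library, and litter 1 was the lowest in each group, where for Tek it was the highest. Tie1 rose by 0.22 (SE 0.04, adjusted p = 0.0158), and its adjusted p was 0.135 without litter 1.

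Vegfa, the ligand of Kdr and Flt1 (chr17:46016993-46032369, minus strand), was the most abundant of the 10 genes and was not called. Its 3′ UTR holds 1 match to the miR-17 and miR-20a seed. It stood at 206, 192 and 189 CPM in control libraries 1, 2 and 3 and at 179, 175 and 189 CPM in the mutant libraries. The mutant was lower in litters 1 and 2 and level with its littermate in litter 3. The log2 difference was -0.11 (SE 0.05, 95% interval -0.22 to 0.0049, adjusted p = 0.188). Without litter 3 it was -0.16 and was called lower (adjusted p = 0.0256), as were 5.85% of rows. Markers of podocytes, a source of Vegfa, moved in both directions, with a median of 0.01. Of 18 listed genes Npnt, Col4a3 and Col4a4 were called higher and Nphs1 and Wt1 lower, beside 7.93% and 3.51% of rows. Nphs1, a slit diaphragm protein of podocytes, fell from 43.0 ± 4.08 to 35.9 ± 3.78 CPM (SD, n = 3, limma adjusted p = 0.0286), and the summed podocyte markers ran from 1732 to 1929 CPM in control and 1853 to 1927 CPM in mutant libraries. Their part in the Vegfa values was not tested.

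Vegfb, a ligand of Flt1 (chr19:6982473-6987651, minus strand), was the most even of the ligands between genotypes. Control libraries held 26.5, 31.8 and 30.8 CPM and mutant libraries 26.5, 31.4 and 30.0 CPM in litters 1, 2 and 3. Each litter kept its level in the other genotype, with litter 1 lowest. The log2 difference was -0.02 (95% interval -0.16 to 0.13, adjusted p = 0.886).

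Vegfc, the ligand of Flt4 (chr8:54077606-54187096, plus strand), was the scarcest of the 10, with 365 to 758 reads per library. Its 3 control values of 8.33, 11.5 and 12.5 CPM lay below the 3 mutant values of 13.3, 13.8 and 13.8 CPM. The difference was 0.65 in litter 1, 0.25 in litter 2 and 0.14 in litter 3, where the control library of litter 1 had the lowest of the 6 levels. The log2 difference of 0.34 (SE 0.11) was as large as that of Kdr and did not pass (unadjusted p = 0.0148, adjusted p = 0.0848). It passed without litter 3 (0.45, adjusted p = 0.0235) and was 0.19 without litter 1. In limma's paired fit Vegfc and Angpt2 were the 2 ligands with an unadjusted p below 0.05. At 365 reads counting error alone is 5.23% of the value.

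Angpt1, the activating ligand of Tek (chr15:42424723-42676977, minus strand), was not called. It stood at 25.2, 19.3 and 20.2 CPM in control and 29.9, 18.5 and 24.1 CPM in mutant libraries 1, 2 and 3, higher in litters 1 and 3 and lower in litter 2. The paired log2 difference was 0.14 (SE 0.08, adjusted p = 0.300). It overlaps the antisense gene Gm17473, and since the strand setting of the counts is not given in the sources used here, reads of the pair may not be separable.

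Angpt2, the context-dependent ligand of Tek (chr8:18690263-18741562, minus strand), holds a match to the miR-92a seed, was higher in the mutant of 3 of 3 litters and was not called. Control libraries held 21.8, 14.6 and 17.7 CPM and mutant libraries 24.8, 19.6 and 20.6 CPM. Control library 1 was above mutant libraries 2 and 3, as for Tek. The log2 difference was 0.27 (SE 0.08, unadjusted p = 0.00866, adjusted p = 0.0633), with an adjusted p of 0.0489 without litter 3.

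**Figure D2:**
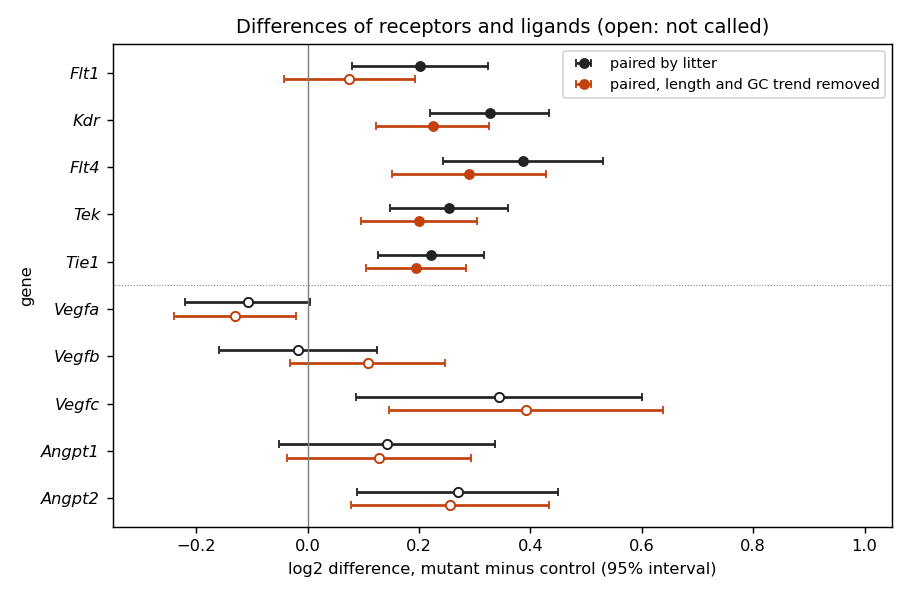
Log2 difference of each gene (horizontal axis, mutant minus control) with its unadjusted 95% interval, paired by litter, without and with a correction of each library for transcript length and GC content. Filled points have an adjusted p below 0.05. The 5 receptors run from 0.20 to 0.39 in the first fit, and Flt1 drops to 0.07 in the second.

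A lean of libraries to long transcripts moved with genotype, and the receptor transcripts are long. Across rows, which are not independent replicates, the log2 difference had a Spearman's rho of 0.439 with transcript length, and in each litter the mutant library leaned further to long transcripts than its littermate. The receptor transcripts are 4091 to 6895 bases and the ligand transcripts 1281 to 4260 bases, against a median of 3138 bases. A correction fitted each library's values on transcript length and GC content and took that fit out, which left a rho of 0.0109. With it 4 of the 5 receptors were called higher, where 6.3% of rows were called and 4.34% called higher. Kdr then stood at 0.22 (adjusted p = 0.0239), Flt4 at 0.29 (0.0288), Tek at 0.20 (0.0379) and Tie1 at 0.19 (0.0255). Flt1, the longest of the 10, was no longer called, with 0.07 (adjusted p = 0.431). Of the genes with a seed match, Flt1, Vegfa and Angpt2, none was called after the correction, and only Flt1 had been called before it. Any part of the matches in these values was not tested. No ligand was called after the correction, and Vegfa stood at -0.13 (adjusted p = 0.147). Vegfb, the shortest, changed sign to 0.11 (adjusted p = 0.332). With the correction and no block none of the 10 was called, beside 1.78% of rows.

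Levels can be set side by side between genes only per length, in CPM per kilobase of transcript. In control kidneys Vegfa was highest at 56.6 ± 2.62 CPM per kilobase (SD, n = 3), followed by Tie1 at 35.7 ± 2.04. Vegfb (23.2 ± 2.22), Kdr (22.6 ± 0.173) and Tek (20.7 ± 2.49) came next and did not differ beyond their spread. Flt1 (6.58 ± 0.784), Flt4 (5.13 ± 0.594), Angpt2 (5.06 ± 1.02), Angpt1 (5.06 ± 0.746) and Vegfc (4.41 ± 0.897) formed the low end. The control libraries of Flt1 lay above those of Flt4, and from Flt4 down no neighbours differed beyond their spread. In mutant kidneys Vegfa stood at 52.5 ± 2.14 and Tie1 at 41.6 ± 2.45 CPM per kilobase, in the same leading places. Kdr (28.4 ± 1.49) was then above Tek (24.7 ± 3.33) and Vegfb (22.9 ± 1.97), with the spreads of Kdr and Tek overlapping.

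**Figure D3:**
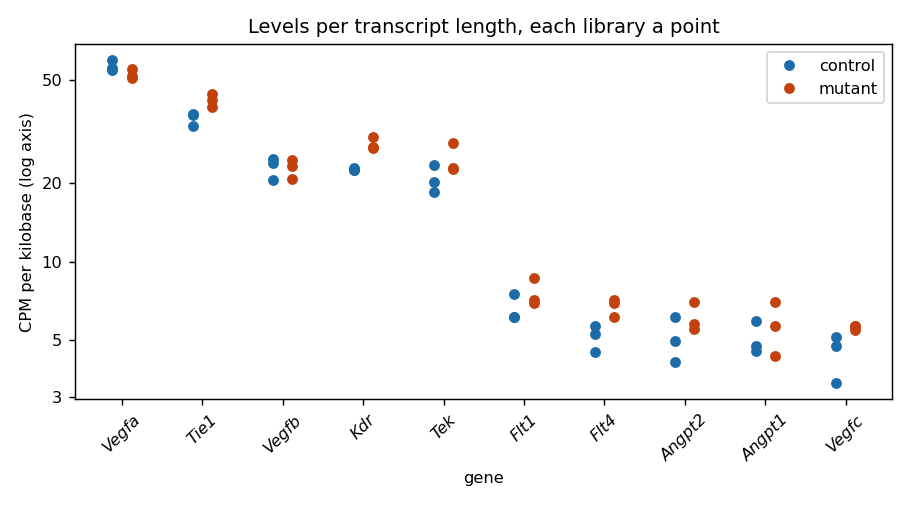
CPM per kilobase of transcript (log axis) of each gene, ordered by the control mean, with 1 point per library. Vegfa and Tie1 lead in each group, and Flt1, Flt4, Vegfc and the angiopoietins lie below 10 CPM per kilobase.

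The 10 genes did not share a litter pattern. In litter 1, Angpt1, Angpt2 and Tek had their highest value in each genotype. In the same litter Vegfb, Vegfc, Flt4 and Tie1 had their lowest value in each genotype, with Vegfb at 26.5 CPM in control and mutant. Litter 3 held the highest Flt1 value of each group. The block takes these litter levels out of the comparison, and for Tek the SE was 0.05 with the block and 0.12 without.

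Ratios within a library showed less Vegfa per Kdr in mutant kidneys, with a p that 3 litters cannot bring below 0.25. Vegfa over Kdr, on CPM + 0.5, was 1.52, 1.43 and 1.41 in control and 1.10, 1.07 and 1.06 in mutant libraries 1, 2 and 3. The ratios are not scaled to transcript length, so only their differences between genotypes are read, not their size. The log2 ratio was lower by 0.46, 0.43 and 0.41 in the 3 litters, a mean difference of -0.43 ± 0.03 (SD, n = 3 litters). The exact two-sided paired permutation p was 0.25 (0.312 adjusted over the 5 ratios). Tek over Tie1 differed by 0.03 ± 0.02 and Flt1 over Kdr by -0.13 ± 0.07, each with the same sign in 3 of 3 litters (exact permutation p = 0.25 for each). Angpt2 over Angpt1 had no common direction, with -0.06, 0.48 and -0.04 in litters 1, 2 and 3 (exact permutation p = 1.0). After the length and GC correction Vegfa over Kdr was -0.36 ± 0.04, lower in 3 of 3 litters, Flt1 over Kdr was -0.15 ± 0.07, and Tek over Tie1 was 0.01 ± 0.05, with 2 of 3 litters higher.

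**Figure D4:**
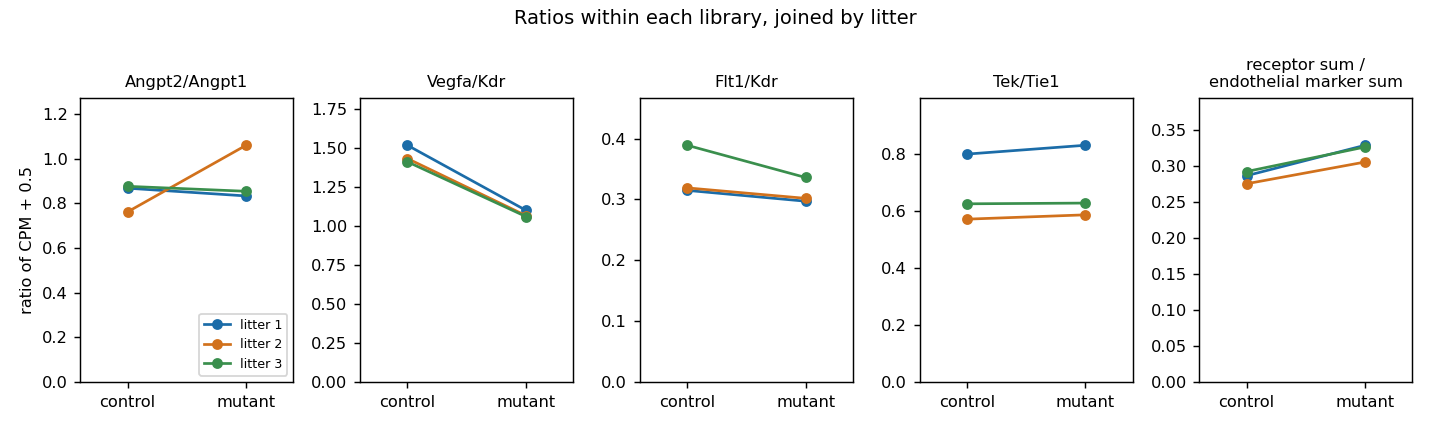
Ratios of CPM + 0.5, not scaled to transcript length, within each library (vertical axes, from 0), with lines joining the 2 libraries of a litter. Vegfa over Kdr lay between 1.41 and 1.52 in control and between 1.06 and 1.10 in mutant libraries, and the receptor sum over the endothelial marker sum was higher in each mutant than in its littermate.

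A few other endothelial genes were called higher too. Of 26 endothelial markers 4 were called higher and 0 lower, beside 7.93% and 3.51% of rows, with a median of 0.12. Ece1, an endothelin-converting enzyme, rose by 0.34 (adjusted p = 0.00697), Mmrn2, a matrix protein of vessels, by 0.31 (0.0329), Cdh5, the adhesion protein of endothelial junctions, by 0.28 (0.00971) and Cd93 by 0.27 (0.0199). After the length and GC correction Mmrn2 (adjusted p = 0.0615) and Cd93 (0.0954) were not called, and Gpihbp1, a capillary protein that holds lipoprotein lipase, was called in addition (0.0414). The pan-endothelial gene Pecam1 was not called (0.17, adjusted p = 0.0601), and Emcn and Plvap, genes of capillary endothelium, stood at -0.02 and 0.02. Gpihbp1, Pecam1, Emcn and Plvap were named after their values were seen. The summed markers ran from 1574 to 1621 CPM in control and 1648 to 1779 CPM in mutant libraries, with none at 0. Without litter 1 only 1 of the 26 was called, beside 1.73% of rows called higher. Without litter 2 or litter 3, 5 were, beside 6.87% and 10.7%. The summed receptors divided by the summed markers gave 0.287, 0.276 and 0.292 in control and 0.329, 0.306 and 0.327 in mutant libraries. This log2 ratio was higher in 3 of 3 litters, by 0.17 ± 0.03 (SD, exact paired permutation p = 0.25, the smallest possible). It was 0.13 with the 3 marker rows that join several genes left out. After the length and GC correction it was 0.08 ± 0.04, higher in 3 of 3 litters.

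Lymphatic markers, the background to Flt4 and Vegfc, included 4 of 9 called higher and 0 lower, beside 7.93% and 3.51% of rows, with a median of 0.27 that was 0.12 after the length and GC correction. Lyve1, a hyaluronan receptor of lymphatic vessels and of some macrophages, rose from 6.50 ± 0.336 to 9.90 ± 0.994 CPM (SD, n = 3, limma adjusted p = 0.0117). Mmrn1 rose from 6.57 ± 0.812 to 9.94 ± 0.820 CPM (limma adjusted p = 0.0242, n = 3), and Reln and Itga9, which other kidney cells also express, by 0.32 and 0.27. The other 5 were not called and leaned in different directions. Prox1, the lymphatic master factor, lay between 0.614 and 0.829 CPM in control and between 1.10 and 1.31 CPM in mutant libraries (adjusted p = 0.0799). Pdpn, a surface protein of lymphatic vessels that podocytes also make, was lower in every mutant than in every control library (-0.30, adjusted p = 0.0859). Foxc2, Nr2f2 and Sox18 stood at -0.05, 0.07 and 0.02. Macrophage markers ran from 136 to 145 CPM summed in control and 145 to 180.2 CPM in mutant libraries, and 1 of 12, Mrc1, was called higher. Their part in the Lyve1 and Flt4 values was not tested. After the length and GC correction 2 of the 9 lymphatic markers were called higher, Lyve1 and Mmrn1, beside 4.34% of rows. Without litter 1 only 1 was, beside 1.73%.

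Other genes of the pathways, from a list of co-receptors, further ligands, modulators and targets, were called in 1 direction. Of 34 measured genes 11 were called higher and 0 lower, beside 7.93% and 3.51% of rows, with a median of 0.16. Among ligands and co-receptors, Vegfd, the second ligand of Flt4, rose from 32.6 ± 4.50 to 41.6 ± 3.66 CPM (SD, n = 3, limma adjusted p = 0.0384), and Nrp2, a neuropilin co-receptor of Vegfc, from 37.6 ± 3.02 to 50.6 ± 2.77 CPM (limma adjusted p = 0.0117). Sema3a and Sema3c, semaphorins that bind neuropilins, rose by 0.43 and 0.44. Among modulators, Ptprb, the phosphatase that silences Tek, rose from 36.6 ± 4.41 to 47.8 ± 2.55 CPM (limma adjusted p = 0.00976, n = 3), and Svep1, a matrix protein, by 0.30. Adamts1, a protease that can bind Vegfa, rose by 0.40, and Apln, the apelin ligand of endothelial tip cells, by 0.45. Pgf, a further ligand of Flt1 named here after its values were seen, stood at 8.36, 8.36 and 8.57 CPM in control and 6.42, 6.85 and 6.62 CPM in mutant libraries, with every mutant below every control, as for 7.12% of rows, and was not called (-0.33, adjusted p = 0.0661). The other calls were Nrp1, whose row is shared with Mir1903, Plxnd1 and Aplnr. After the length and GC correction 6 of the 34 were called higher and 0 lower, beside 4.34% of rows called higher, and the median was 0.08. Ptprb (adjusted p = 0.0955), Svep1 (0.467), Nrp1 (0.063), Plxnd1 (0.258) and Aplnr (0.0743) were then no longer called. Without litter 1 the count was 2, beside 1.73% of rows called higher, and without litter 2 it was 6, beside 6.87%. Without the block, no gene of the endothelial, lymphatic and partner lists was called.

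**Figure D5:**
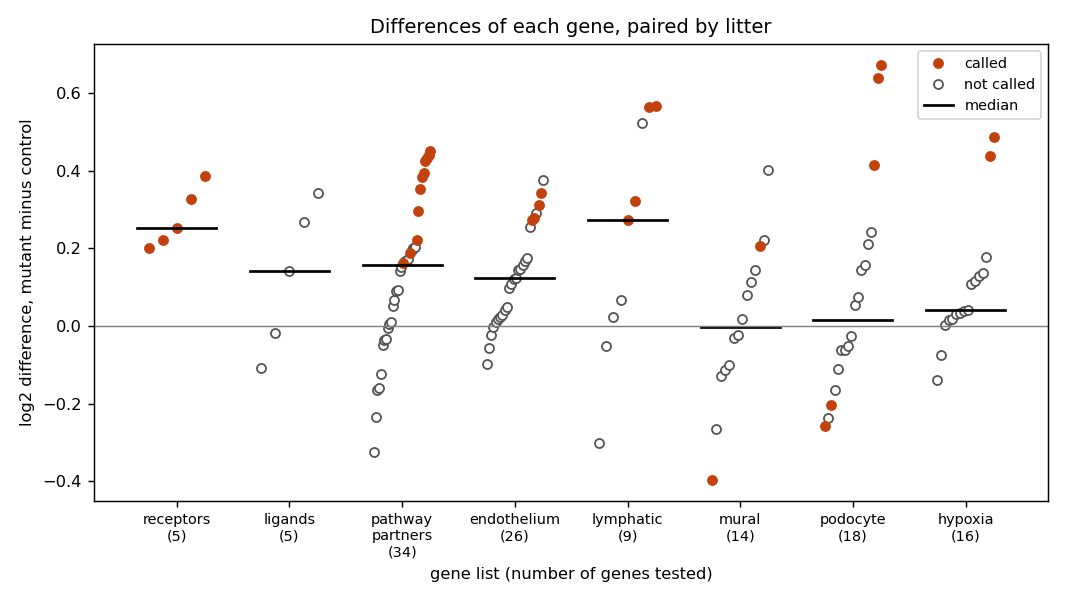
Log2 difference of each gene (vertical axis, mutant minus control, paired by litter) by list, with the number of genes tested in brackets. Filled points have an adjusted p below 0.05 and black lines are medians, 0.25 for the receptors, 0.16 for the pathway partners and 0.12 for the endothelium.

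Mural and oxygen-sensing genes were called in small numbers, and other cell types of the kidney in larger ones. The mural and oxygen-sensing lists stand beside 7.93% of rows called higher and 3.51% lower. Of 14 mural markers Notch3 was called higher (0.21) and Rgs5, a pericyte gene, lower (-0.40, adjusted p = 0.0496), with a median of -0.002. Neither was called after the length and GC correction (adjusted p = 0.279 and 0.0824) or without the block (0.616 and 0.601). Among 16 genes of oxygen sensing and its targets, the system that induces Vegfa in low oxygen, Hif3a (0.44) and Ndrg1 (0.49) were called higher, 0 were lower, and the median was 0.04. Both stayed called after the length and GC correction (adjusted p = 0.0112 and 0.046). Without the block neither was called (0.199 and 0.170), and in litter 3 the log2 difference of Ndrg1 was 0.004. The next 3 lists stand beside the same 7.93% of rows called higher and 3.51% lower in the main fit. Their counts after the length and GC correction stand beside 586 rows called higher (4.34%) and 266 lower of 13517. Those without the block stand beside 50 rows called higher and 27 lower of 13766 (0.559% in all). Stromal markers had 6 of 14 called higher and 0 lower (5 after the length and GC correction, 3 without the block), among them Pdgfra (0.51) and Fat4 (0.78), and their sum ran from 3406 to 3721 CPM in control and 3987 to 4653 CPM in mutant libraries. Proximal tubule markers had 6 of 12 called higher and 0 lower (3 after the correction, where Lrp2, Cubn and Hnf4a were lost, and 1 without the block), and their sum ran from 811 to 923 CPM in control and 994 to 1227 CPM in mutant libraries. Nephron progenitor markers had 9 of 14 called lower and 0 higher (9 lower after the correction, 6 without the block), with sums of 921 to 934 CPM in control and 656 to 666 CPM in mutant libraries. The lists were chosen with earlier results of these data known, so their counts may reflect that choice and are no independent evidence. The globin genes Hbb-bs and Hba-a1, from red blood cells, were not called (-0.10, adjusted p = 0.236, and -0.07, adjusted p = 0.367). The part of these cell types in the receptor values was not tested.

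Ranked over the 6 libraries among 10941 single-gene rows with a mean of at least 5 CPM, the rows most like Kdr were Ror1 (Pearson's r = 0.996), Ercc4 (0.991) and Dtx3l (0.989). Those most like Tek were Selenop (0.999), Gcnt1 (0.997) and Tlr3 (0.994), and those most like Angpt2 were Efl1 (0.997), Uggt2 (0.993) and Dnajb11 (0.992). Those most like Vegfa were Slc31a2 (0.986), Sp3os (0.980) and Sgo1 (0.977). These values describe the top of a long ranking over 6 libraries that share litters and genotype, and carry no test.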

How the data were processed

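The authors deposited CPM values per gene. The tools named per the submitters' processing notes are TopHat2 2.0.9, SAMtools and Picard, and the build is NCBIM37. The counting program, strand setting and row filter are not given in the sources used here. Multiplied by 1 total per library, all deposited CPM values came out as whole reads, to within 0.001 reads. Libraries came from Trizol-extracted RNA and the TruSeq RNA kit, per the labels' protocols. Rows reaching 1 CPM in 3 or more libraries were fitted with limma 3.58.1 (R 4.3.3, trend on, litter as a block) on log2(CPM + 0.5). The labels name the litters, and deviations from the group means correlated across genes at 0.619, 0.446 and 0.312 within litters 1, 2 and 3 and at -0.514 to 0.172 between litters. Litter and genotype mark the libraries as coming from different embryos, and pooling of embryos is not stated. The model was tested on simulated data. Ratios were compared by exact two-sided permutation.

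Transcript length, GC content, gene positions and UTRs came from 1 GENCODE M21 transcript per gene (GRCm38), the longest that shares the stop codon of the longest coding sequence, used for annotation only, and 13517 of the 13766 rows had one. The length and GC correction used, per library, natural splines of 4 degrees of freedom each. Per list, named genes are the called genes of largest difference, up to 8 for pathway partners and 4 elsewhere, and without calls the 2 most abundant. Similar genes are the 3 rows of highest Pearson's r. Members and lists were chosen with earlier results of these data known.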

Additional observations from a re-analysis of the deposited data

How the results depend on the processing

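Pairing decides whether the receptors pass: without the replicate block the log2 differences of Kdr (0.33), Flt4 (0.39), Tek (0.25), Tie1 (0.22) and Flt1 (0.20) were the same and none was called, and the called rows fell from 1574 to 77 (50 higher, 27 lower), with 0 members, 0 pathway partners, 0 endothelial and 0 lymphatic markers. The length and GC correction left 852 rows (586 higher, 266 lower), 6 pathway partners and 2 lymphatic markers, put Flt1 at 0.075 and turned Vegfb to 0.11. With that correction and no block 241 rows were called (163 higher, 78 lower), 0 members, 2 pathway partners, 1 endothelial and 1 lymphatic marker, with Kdr at 0.22, Flt4 at 0.29, Tek at 0.20, Tie1 at 0.19, Flt1 at 0.075 and Vegfb at 0.11. Median-ratio scaling (0.19) and trimmed-mean scaling (0.19) each ended the call of Flt1. Other pseudocounts and filters changed no call of the 10 genes. Of 2 alternatives chosen after seeing the data, leaving out joined rows gave a receptor to endothelial marker log2 ratio of 0.13, and the length and GC correction gave 0.077, with Vegfa to Kdr at -0.36 and Tek to Tie1 at 0.0059.

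With 1 litter left out (paired) or 1 library left out (no replicate block), counts ran from 22 to 2284 rows (7 to 1476 higher, 13 to 808 lower), and from 0 to 6 members higher, 0 to 1 lower, 0 to 12 pathway partners, 0 to 5 endothelial and 0 to 4 lymphatic markers. Paired, 304 rows (1 member) were called without litter 1, 1392 (4 members) without litter 2 and 2284 (7 members) without litter 3. The log2 differences ran from -0.16 to -0.062 for Vegfa, -0.097 to 0.052 for Vegfb, 0.18 to 0.46 for Vegfc, 0.10 to 0.30 for Flt1, 0.28 to 0.36 for Kdr, 0.29 to 0.46 for Flt4, -0.021 to 0.32 for Angpt1, 0.13 to 0.41 for Angpt2, 0.15 to 0.35 for Tek and 0.17 to 0.26 for Tie1. Vegfb changed sign without control library 2 (0.034), control library 3 (0.010) or mutant library 1 (0.052), and Angpt1 without mutant library 1 (-0.021). The Angpt2 to Angpt1 ratio went from -0.048 without litter 2 to 0.22. The cause was not tested. The planned edgeR and DESeq2 tests on whole reads were not run. With 365 reads or more per library, counting error for the 10 genes is at most 5.23%.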
